A study of Sus scrofa with 24 samples.

Results

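Of the 12017 genes in the deposited table, 10 are described here: the circadian clock genes ARNTL, CLOCK, PER1, PER2, PER3, CRY1, CRY2, NR1D1, NR1D2 and DBP. They were taken by gene symbol, by a rule that uses no measured value, although the choice of this gene set was made with earlier results of these data known. All 10 were present, as 27 of the 22154 listed transcripts, and all 10 had a mean of at least 0.5 FPKM and so entered the test of 11757 genes. FPKM is the number of sequenced fragments per kilobase of transcript, scaled to the number of fragments mapped in the library, and the level of a gene is the sum over its listed transcripts.

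The tissue was longissimus dorsi, a back muscle, from 24 Duroc x Luchuan crossed pigs. The labels put 12 of them in a high and 12 in a low group of intramuscular fat (IMF), which lies between muscle fibres. The 24 came from 265 F1 pigs, whose sires were 8 Duroc boars and whose dams were 112 Luchuan sows. All shared a farm and diet, were slaughtered in the same abattoir at 210 ± 6 days of age, and had muscle taken 25 minutes after death. The labels name no treatment, sex or litter, no fat content of an animal, and no hour of the day at which an animal was killed. The titles also hold an animal identifier, which starts with DLC1601 or DLC1512, with 6 high and 6 low IMF animals in each set. In 3 pairs, high IMF animals 4 and 8, low IMF animals 6 and 7, and low IMF animals 2 and 8, the first 9 digits of the identifier are shared. No label says what these digits stand for. Each library is 1 animal, and animals are numbered here within their IMF group.

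The circadian clock is a feedback loop of transcription that runs with a period of about a day in nearly every cell, muscle fibres included. In work on mouse and human cells, the proteins CLOCK and ARNTL (also called BMAL1) pair up and switch on the PER, CRY, NR1D and DBP genes. The PER and CRY proteins then inhibit that pair, and NR1D1 and NR1D2 (REV-ERB alpha and beta) repress ARNTL, so that ARNTL peaks when the PER, NR1D and DBP genes are low. In muscle the loop is known for timing glucose uptake, fuel choice and MYOD1 activity.

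Summed FPKM was 351119 to 415572, and the depth inferred from the spacing of low values was 32.9 to 40.8 M reads (M for mega). The 9 muscle fibre markers were all in the table and summed to 19466 to 48797 FPKM in high IMF animals and 23319 to 56606 FPKM in low IMF animals. All 10 adipocyte markers had the higher mean in high IMF animals, and they summed to 121 to 267 FPKM there, against 87.5 to 224 FPKM in low IMF animals. In the test of the 11757 genes, 1 of the 10 was called between the groups, where 0.051% of all genes were. Over all tested genes the median log2 difference, high minus low IMF, was 0.08. All 5 endothelial markers were listed, and so were 3 of 4 macrophage, 2 of 3 blood and 2 of 3 smooth muscle markers; CD68, HBA1 and MYH11 were not analysed here. The mean was higher in high IMF animals for 2 of 9 muscle fibre and 4 of 5 endothelial markers. The same held for 2 of 3 listed macrophage, 2 of 2 blood and 1 of 2 smooth muscle markers. The part of the endothelial, macrophage, blood and smooth muscle markers in the results was not tested. In high IMF animal 7 and low IMF animal 10 the 10 most abundant genes took 20.2% and 18.5% of all FPKM, against 24.7% to 33.0% in the other 22 libraries, so results were also computed without these libraries. In whole muscle, fewer cells of a type and less RNA per cell cannot be told apart.

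NR1D2 was the most abundant at 28.5 FPKM on average over the 24 animals, followed by DBP at 16.4 FPKM, NR1D1 at 10.8 FPKM and PER1 at 9.21 FPKM. CRY2 averaged 4.18 FPKM, CRY1 2.49 FPKM, CLOCK 2.33 FPKM, PER3 2.16 FPKM, PER2 1.74 FPKM and ARNTL 1.32 FPKM. NR1D2 exceeded DBP in 20 of 24 animals, PER1 exceeded CRY2 in 21 and CRY2 exceeded CRY1 in 19. DBP exceeded NR1D1 in 14 of 24 animals, NR1D1 exceeded PER1 in 15 and CRY1 exceeded CLOCK in 10. CLOCK exceeded PER3 in 12, PER3 exceeded PER2 in 17 and PER2 exceeded ARNTL in 14. The order of these neighbours thus varied between animals, and differences between members were not tested.

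The genes also differed in how much they varied. DBP had a coefficient of variation of 79.0% and PER2 of 74.5%, against 26.1% for CRY1, 26.1% for NR1D1 and 24.5% for NR1D2. The SD of DBP on the log2(FPKM + 1) scale was 1.17, and 154 of the 11757 tested genes (1.31%) had a larger one. Among the 1321 tested genes within 1.5-fold of its mean, 3.26% had a larger SD, and their median SD was 0.36. For PER2 the SD was 0.77 and 5.55% of tested genes were more variable. For CRY1 the SD was 0.27 and 68.5% of tested genes were more variable. CLOCK, PER1 and CRY2 had SDs of 0.75, 0.64 and 0.59, with 6.06%, 9.81% and 12.7% of tested genes more variable.

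**Figure D1:**
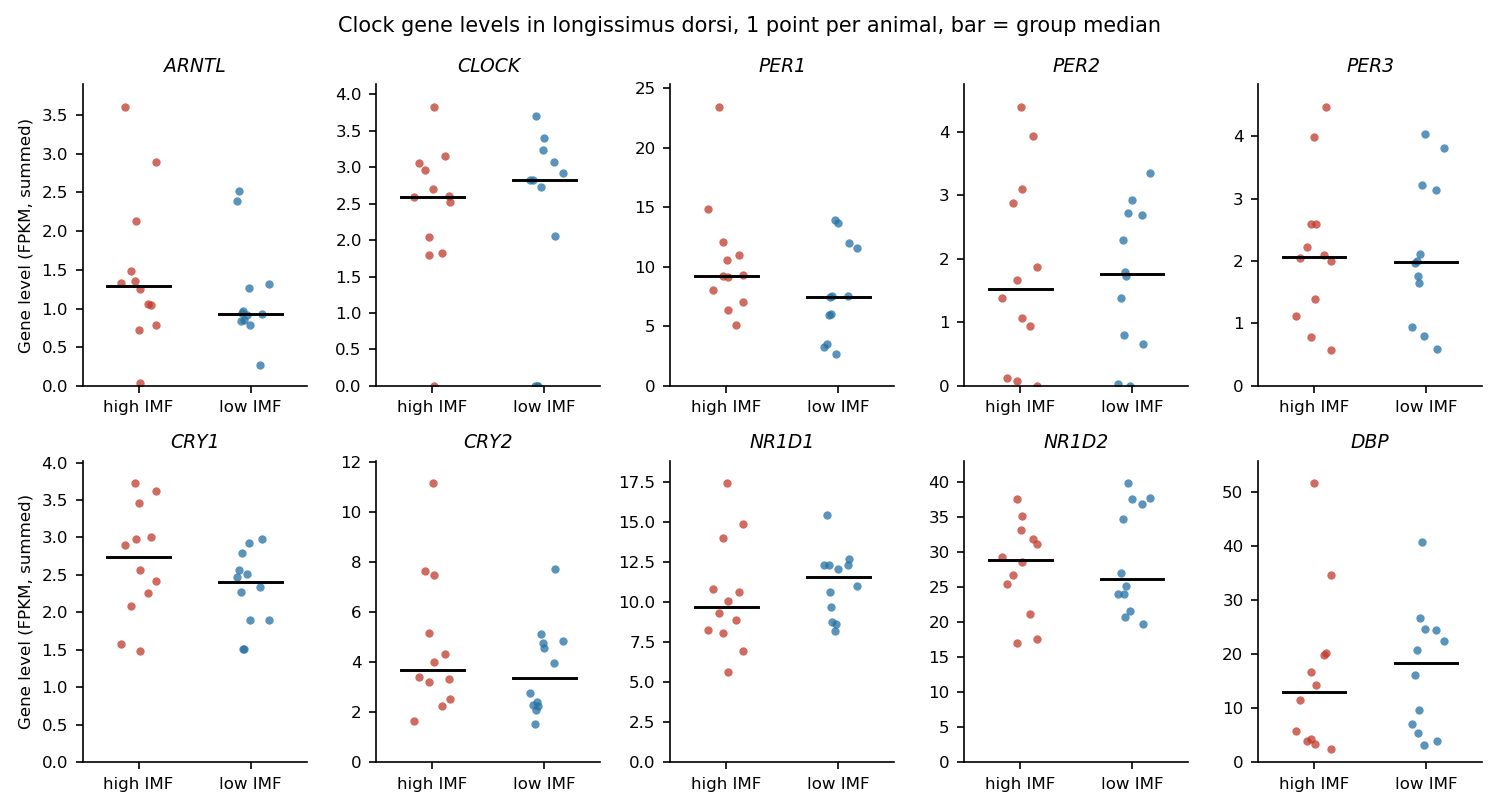
Level of each clock gene (y axis, FPKM summed over the listed transcripts of the gene, linear, from 0) in the 12 high and 12 low IMF animals (x axis), with 1 point per animal and a bar at the group median. The groups overlap in every panel, and DBP runs between 2.42 and 51.6 FPKM.

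The main question of the series is what differs between muscle of high and low fat content. No clock gene passed the test between the groups: 0 of 10 were called by limma on log2(FPKM + 1) at a Benjamini-Hochberg adjusted p of 0.05 over all 11757 tested genes, where 0.051% of all genes (6) were called, 0.0425% higher and 0.00851% lower in high IMF animals. At an unadjusted p of 0.05, 0 of the 10 passed, where 7.68% of all genes (903) did. Of the 10 differences, 5 were positive (ARNTL, CLOCK, PER1, CRY1 and CRY2) and 5 negative (PER2, PER3, NR1D1, NR1D2 and DBP), with a median of 0.07 on the log2 scale against 0.08 over all tested genes. With the libraries scaled by trimmed mean of M values (TMM), the split was again 5 and 5 and the median was -0.01, against -0.00 over all genes. The high and low IMF animals overlapped for every member.

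Of the activating arm, ARNTL lies on chromosome 2 from 45895643 to 46025116 (build Sscrofa11.1, as for all positions here) and encodes the DNA-binding partner without which the loop stops in mice. ARNTL was at 0.0363 FPKM in the lowest, 1.29 in the median and 3.61 in the highest of the high IMF animals, and at 0.273, 0.935 and 2.52 FPKM in the low IMF animals. The level was above 2 FPKM in high IMF animals 2, 3 and 6 and in low IMF animals 5 and 7, and near or below 1.5 FPKM in the rest. ARNTL averaged 1.47 ± 0.978 FPKM in high and 1.17 ± 0.654 FPKM in low IMF animals (SD, n = 12 each), a log2 difference of 0.15 (SE 0.19, limma adjusted p = 0.870), with the low IMF median exceeded in 9 of 12 high IMF animals.

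CLOCK, a histone acetyltransferase and the partner of ARNTL, lies on chromosome 8 from 54788934 to 54910133. It is listed as 1 assembled transcript of 10164 bases, which overlaps TMEM165 of the opposite strand by 2298 bases. TMEM165 averaged 1.87 FPKM and went with CLOCK at r = 0.382 (permutation p = 0.0617, not adjusted). CLOCK is listed at 0 in high IMF animal 9 and in low IMF animals 1, 3 and 8. In the other 11 high IMF animals it lay between 1.80 and 3.83 FPKM, and in the other 9 low IMF animals between 2.05 and 3.70 FPKM. Every row of the table is above 0 in at least 19 libraries, so any CLOCK transcript found in fewer animals is not analysed here. The log2 difference was 0.21 (SE 0.29, limma adjusted p = 0.886) with all animals and -0.13 (adjusted p = 0.992) without these 4, an alternative chosen after the zeros were seen.

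The 4 libraries with CLOCK at 0 were below the median of the 24 in other long transcripts. The median log2(FPKM + 1) of transcripts of at least 8000 bases was 1.05 in high IMF animal 9 and 1.01, 0.86 and 0.99 in low IMF animals 1, 3 and 8, against a range of 0.86 to 1.44 and a median of 1.11 over the 24. Libraries with CLOCK present were also low. High IMF animal 11 and low IMF animals 2, 5 and 6 were at 0.97, 1.02, 1.02 and 1.05. There CLOCK was at 1.82, 2.05, 2.82 and 2.73 FPKM. Across animals this measure went with CLOCK at Pearson r = 0.624 (permutation p = 0.00038, adjusted p = 0.0152 over 40 relations of the 10 genes with 4 library measures; Spearman rho = 0.715), 0.436 within high and 0.721 within low IMF animals. It was added after the data were seen, and its part in the zeros was not tested. The 3 genes most correlated with CLOCK were HTT, which encodes huntingtin, CEP295 of the centriole and KLHL20, a ubiquitin ligase adaptor, at r = 0.843, 0.819 and 0.801. Without the 2 animals farthest from the CLOCK median these were 0.786, 0.767 and 0.653, and Spearman's rho over all animals was 0.489, 0.664 and 0.721.

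The PER genes encode the large repressor proteins of the loop. PER1, on chromosome 12 from 53361885 to 53376911, is also switched on directly by glucocorticoids and cAMP in mice. PER1 was at 5.07, 9.26 and 23.4 FPKM in the lowest, median and highest of the high IMF animals, and at 2.64, 7.48 and 13.9 FPKM in the low IMF animals. High IMF animal 5, at 23.4 FPKM, stood above all others, and the 5 lowest values were 2.64 to 5.94 FPKM, in high IMF animal 11 and low IMF animals 4, 5, 7 and 8. PER1 averaged 10.5 ± 4.84 FPKM in high and 7.92 ± 4.0 FPKM in low IMF animals (SD, n = 12 each). The log2 difference of 0.42 (SE 0.24, 95% interval -0.07 to 0.91) had the smallest unadjusted p of the 10, 0.0927, and an adjusted p of 0.695 by limma. For 9 of the 12 high IMF animals PER1 was above the low IMF median.

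PER2, on chromosome 15 from 137793308 to 137837430, is a subunit of the repressor complex that is itself induced by feeding and light in mice. It was listed at 0 in high IMF animal 2 and low IMF animal 4, where 3 reads on its 6816 bases would give 0.0108 to 0.0134 FPKM. The median and highest values were 1.52 and 4.39 FPKM in high IMF animals, and 1.76 and 3.34 FPKM in low IMF animals. High IMF animals 3 and 6, at 0.127 and 0.0813 FPKM, and low IMF animal 5, at 0.0373 FPKM, were also near 0. PER2 is listed as 1 assembled transcript, and as for CLOCK, any found in fewer than 19 libraries is not analysed here. The log2 difference was -0.02 (SE 0.30, limma adjusted p = 0.993), and 5 of 12 high IMF animals were above the low IMF median.

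PER3, on chromosome 6 from 68487640 to 68548721, is not needed for the loop to run in mice. PER3 was at 0.575, 2.07 and 4.47 FPKM in the lowest, median and highest of the high IMF animals, and at 0.597, 1.98 and 4.04 FPKM in the low IMF animals. PER3 averaged 2.16 ± 1.18 FPKM in high and 2.17 ± 1.15 FPKM in low IMF animals (SD, n = 12 each), with a log2 difference of -0.00 and a 95% interval of -0.44 to 0.43 (limma adjusted p = 0.997). Both groups ran from animals under 1 FPKM to animals over 4 FPKM, and the range over all 24 was 7.78-fold.

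CRY1 and CRY2 encode the cryptochromes, which bind CLOCK and ARNTL and silence them. CRY1, on chromosome 5 from 13275541 to 13364594, was at 1.49, 2.74 and 3.72 FPKM in the lowest, median and highest of the high IMF animals, and at 1.51, 2.40 and 2.98 FPKM in the low IMF animals. Its log2 difference was 0.14 (SE 0.11, limma adjusted p = 0.781). CRY2, on chromosome 2 from 16584431 to 16620669, was at 1.66, 3.69 and 11.13 FPKM in high IMF animals and at 1.54, 3.36 and 7.70 FPKM in low IMF animals, in the same order of lowest, median and highest. Its log2 difference was 0.23 (SE 0.23, limma adjusted p = 0.825). CRY2 was above 7 FPKM in high IMF animals 1, 5 and 12 and in low IMF animal 2, where CRY1 was at 3.46, 2.09, 1.49 and 2.98 FPKM.

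NR1D1 and NR1D2 encode nuclear receptors that bind heme and repress ARNTL. In mouse muscle NR1D1 is known for raising mitochondrial content. NR1D1, on chromosome 12 from 22263709 to 22275515, was at 5.67, 9.68 and 17.4 FPKM in the lowest, median and highest of the high IMF animals, and at 8.22, 11.5 and 15.4 FPKM in the low IMF animals. NR1D1 averaged 10.4 ± 3.43 FPKM in high and 11.2 ± 2.10 FPKM in low IMF animals (SD, n = 12 each), a log2 difference of -0.13 (SE 0.14, limma adjusted p = 0.836), with 3 of 12 high IMF animals above the low IMF median. Its rows overlap those of THRA, the thyroid hormone receptor alpha gene of the opposite strand, by 9417 bases. The sources used here do not say whether the counting used the strand, so reads of the 2 genes may be mixed, as may those of CLOCK and TMEM165. The level of THRA averaged 13.2 FPKM and went with that of NR1D1 at r = 0.463 (permutation p = 0.0228; Spearman rho = 0.568, p = 0.00469; not adjusted).

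NR1D2, on chromosome 13 from 10756928 to 10791285, was at 17.1, 29.0 and 37.6 FPKM in the lowest, median and highest of the high IMF animals, and at 19.8, 26.1 and 39.9 FPKM in the low IMF animals. NR1D2 averaged 27.9 ± 6.60 FPKM in high and 29.1 ± 7.63 FPKM in low IMF animals (SD, n = 12 each), a log2 difference of -0.06 (SE 0.14, limma adjusted p = 0.949). The 2 lowest animals, high IMF animals 6 and 2 at 17.1 and 17.6 FPKM, were 2 of the 5 animals in which PER2 was at or near 0.

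DBP, on chromosome 6 from 53986958 to 53993020, encodes a transcription factor that carries the rhythm of the loop to its output genes through D-box elements. DBP was at 2.42, 13.0 and 51.6 FPKM in the lowest, median and highest of the high IMF animals, and at 3.22, 18.5 and 40.7 FPKM in the low IMF animals. The range was 21.3-fold over the 24 animals, and each group held animals under 4 FPKM (high IMF animals 2, 5 and 12 and low IMF animal 4) and animals over 30 FPKM (high IMF animals 1 and 4 and low IMF animal 6). DBP averaged 15.8 ± 14.8 FPKM in high and 17.1 ± 11.5 FPKM in low IMF animals (SD, n = 12 each). The log2 difference was -0.28 (SE 0.45, limma adjusted p = 0.908), with a 95% interval of -1.21 to 0.65, and 4 of 12 high IMF animals were above the low IMF median.

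**Figure D2:**
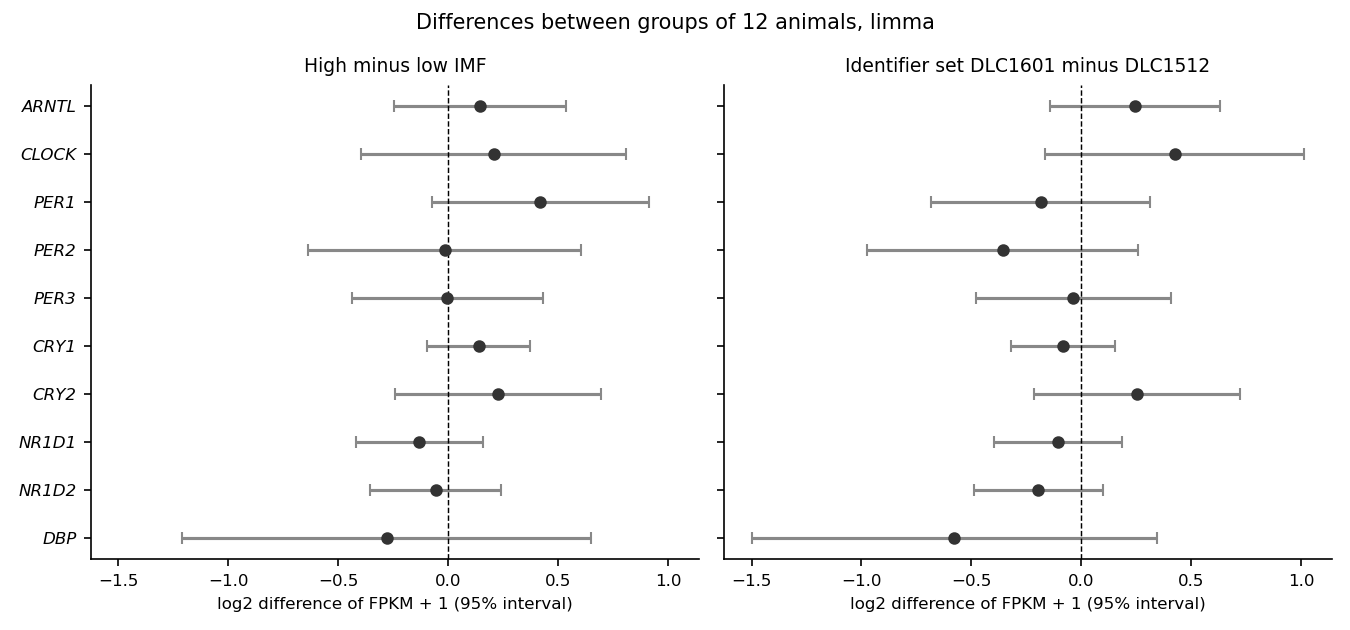
Difference of log2(FPKM + 1) of each clock gene (points, x axis) with its 95% interval from limma, for high minus low IMF on the left and identifier set DLC1601 minus DLC1512 on the right, 12 animals in each group. Every interval includes 0, and that of DBP is the widest in both panels.

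The second grouping was by the identifier. No gene of the table passed limma's test between set DLC1601 and set DLC1512 (0 of 11757, 0%), with 762 genes (6.48%) at an unadjusted p of 0.05, none of them a clock gene. DBP had the largest difference in size, -0.58 on the log2 scale (SE 0.45, adjusted p = 0.834), with medians of 8.39 FPKM in set DLC1601 and 18.5 FPKM in set DLC1512. PER2 followed among the negative ones at -0.36 (SE 0.30), with medians of 1.01 FPKM in set DLC1601 and 1.80 FPKM in set DLC1512. CLOCK at 0.43 (SE 0.29) and ARNTL at 0.24 (SE 0.19) were on the positive side. In all, 3 members were positive and 7 negative, with a median of -0.09 against 0.02 over all tested genes. The difference between IMF groups did not pass limma's test of differing between the sets for any gene (0 of 11757, with 387, or 3.29%, at an unadjusted p of 0.05), and no member had an unadjusted p under 0.05 there.

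Some clock genes were correlated between animals and most pairs were not. Over the 24 animals, 9 of the 45 pairs of members were correlated at an adjusted p of 0.05 (Pearson r of log2(FPKM + 1), two-sided permutation test with 100000 resamples, Benjamini-Hochberg over the 45 pairs), 8 positively and 1 negatively. All 9 had an r of at least 0.536 in size, and 6.26% of all 69107646 pairs of tested genes had an r that large, 5.78% positive and 0.479% negative. By Spearman's rho 8 pairs passed, 7 of them the same. The 6 pairs among PER2, PER3, NR1D2 and DBP were all called and positive, and the single negative pair was ARNTL with PER2. Other pairs of genes that CLOCK and ARNTL switch on varied in r without being called. Some were positive, such as PER1 with CRY2 at 0.410, PER3 with NR1D1 at 0.399 and PER1 with NR1D2 at 0.382. Some were near 0 or negative, such as PER1 with NR1D1 at 0.012, CRY2 with DBP at 0.052 and PER2 with CRY1 at -0.251.

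The closest pair was PER2 and PER3, at r = 0.852 (p = 1e-05, the smallest the resampling can give, adjusted p = 0.000225, rho = 0.873), 0.824 within high and 0.891 within low IMF animals. Each was the most correlated of the 11756 other tested genes with the other. In high IMF animals 1 and 7, PER2 was at 4.39 and 3.93 FPKM and PER3 at 3.99 and 4.47 FPKM, the highest 2 values of PER2 and 2 of the 3 highest of PER3. In high IMF animal 2 and low IMF animal 4, where PER2 was listed at 0, PER3 was at 0.575 and 0.803 FPKM. Without these 2 animals, which were the farthest from the PER2 median, r was 0.808.

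PER3 and DBP were correlated at r = 0.807 (p = 1e-05, adjusted p = 0.000225, rho = 0.767), 0.774 within high and 0.863 within low IMF animals, and PER3 was the gene most correlated with DBP among the 11756. DBP was under 6 FPKM in high IMF animals 2, 5, 6, 10 and 12 and in low IMF animals 2, 4 and 10, and PER3 was at most 2.23 FPKM in each of these 8. In high IMF animals 1 and 4, at 51.6 and 34.7 FPKM of DBP, PER3 was at 3.99 and 2.0 FPKM. Without high IMF animal 2 and low IMF animal 2, the farthest from the PER3 median, r was 0.758.

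NR1D2 was correlated with PER3 at r = 0.804 (p = 2e-05, adjusted p = 0.0003, rho = 0.791), with PER2 at r = 0.776 (p = 3e-05, adjusted p = 0.000337, rho = 0.762) and with DBP at r = 0.697 (p = 0.00023, adjusted p = 0.00207, rho = 0.677). The pair of PER2 and DBP had r = 0.695 (p = 0.0003, adjusted p = 0.00212, rho = 0.694). Without the 2 farthest animals these were 0.743, 0.726, 0.615 and 0.602. Within high IMF animals they were 0.728, 0.788, 0.572 and 0.580, and within low IMF animals 0.882, 0.773, 0.839 and 0.860, in the same order. With reference transcripts alone, which leave out the main assembled isoform of NR1D2 and the only listed transcript of PER2, NR1D2 had r = 0.299 with PER3 (permutation adjusted p = 0.573) and -0.082 with DBP (adjusted p = 0.914). With all listed transcripts, the 4 pairs had the same sign within each identifier set, at 0.838, 0.721, 0.583 and 0.614 in set DLC1601 and 0.819, 0.852, 0.767 and 0.789 in set DLC1512.

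ARNTL ran against PER2, at r = -0.661 (p = 0.00033, adjusted p = 0.00212, rho = -0.598), -0.779 within high and -0.494 within low IMF animals. In the 5 animals with PER2 at or near 0, high IMF animals 2, 3 and 6 and low IMF animals 4 and 5, ARNTL was at 2.89, 3.61, 2.13, 1.27 and 2.39 FPKM, and these include 4 of its 5 highest values. In high IMF animals 1 and 7, with the highest PER2, ARNTL was at 0.718 and 1.05 FPKM. Without high IMF animals 9 and 3, the farthest from the ARNTL median, r was -0.608. High IMF animals 2 and 6 and low IMF animals 4 and 5, with PER2 at or near 0, stayed in. With NR1D2, PER3 and DBP, ARNTL had r = -0.495, -0.442 and -0.438, and these missed the threshold (adjusted p = 0.0616, 0.124 and 0.124). For ARNTL with DBP, Spearman's rho passed, at -0.599 (adjusted p = 0.015). The pairs with NR1D2 and PER3 passed with TMM scaling, at -0.535 and -0.541.

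The remaining called pairs were weaker. NR1D1 and DBP had r = 0.561 (p = 0.00409, adjusted p = 0.023), 0.871 within high and -0.050 within low IMF animals, and rho = 0.486 did not pass (adjusted p = 0.0718). The difference between the groups had an unadjusted permutation p of 0.016 and an adjusted p of 0.595 over the 45 pairs. The call was lost without high IMF animal 1, 2, 4 or 12, at r = 0.482 to 0.525. PER1 and PER2 had r = 0.536 (p = 0.00704, adjusted p = 0.0352), and rho = 0.507 did not pass (adjusted p = 0.0641). Leaving out low IMF animal 4, 5, 6 or 11, or high IMF animal 5, lost this call, at r = 0.451 to 0.518. It was also lost without the 2 libraries with PER2 at 0 (r = 0.450, permutation adjusted p = 0.142). The same held without high IMF animal 7 and low IMF animal 10 (r = 0.525, adjusted p = 0.0595). Adjusting for the long transcript level lost it too (r = 0.502, adjusted p = 0.0521). Within set DLC1601 this r was 0.697, and within set DLC1512 it was 0.151. PER1 was not correlated past the threshold with DBP (r = 0.159) or PER3 (r = 0.391), and neither CRY1, CRY2 nor CLOCK was in any called pair. CRY1 with CRY2 had r = 0.232, ARNTL with CLOCK 0.374 and NR1D1 with NR1D2 0.378.

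**Figure D3:**
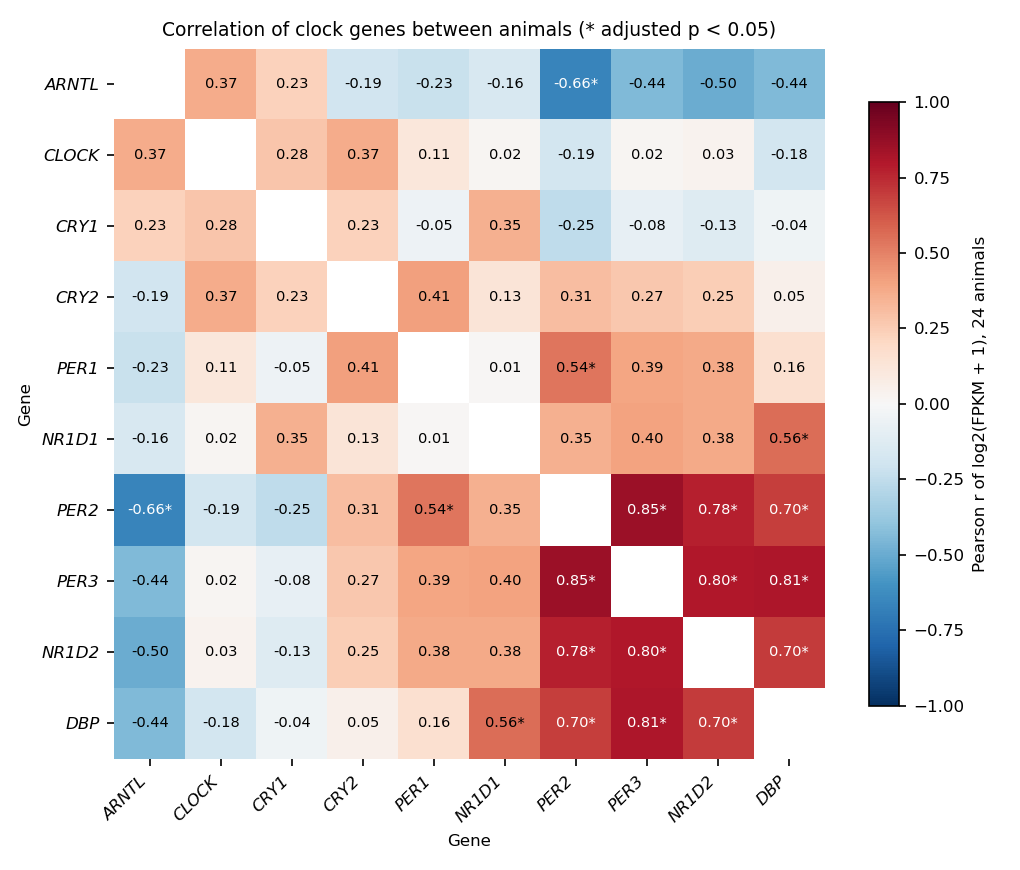
Pearson r of log2(FPKM + 1) over the 24 animals for each pair of clock genes (both axes list the genes; colour runs from -1 to 1), with a star where the permutation p adjusted over 45 pairs is under 0.05. PER2, PER3, NR1D2 and DBP form a block of positive r, and ARNTL is at -0.66 with PER2.

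Of the variance of the 10 standardised genes, 42.5% lay on a first principal component and 18.1% on a second. The first was led by PER2, PER3, NR1D2 and DBP, with loadings of 0.458, 0.442, 0.425 and 0.402, and ARNTL had the opposite sign at -0.321. CLOCK and CRY1 had loadings of -0.055 and -0.061. High IMF animal 1 was the highest of the 24 for PER2, CRY2, NR1D1 and DBP, and high IMF animal 2 was the lowest for PER3 and DBP and had PER2 listed at 0. Both are high IMF animals. No pair of members differed in r between high and low IMF animals after adjustment (0 of 45, permutation of animals between groups), and 2 did at an unadjusted p of 0.05, both with NR1D1.

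**Figure D4:**
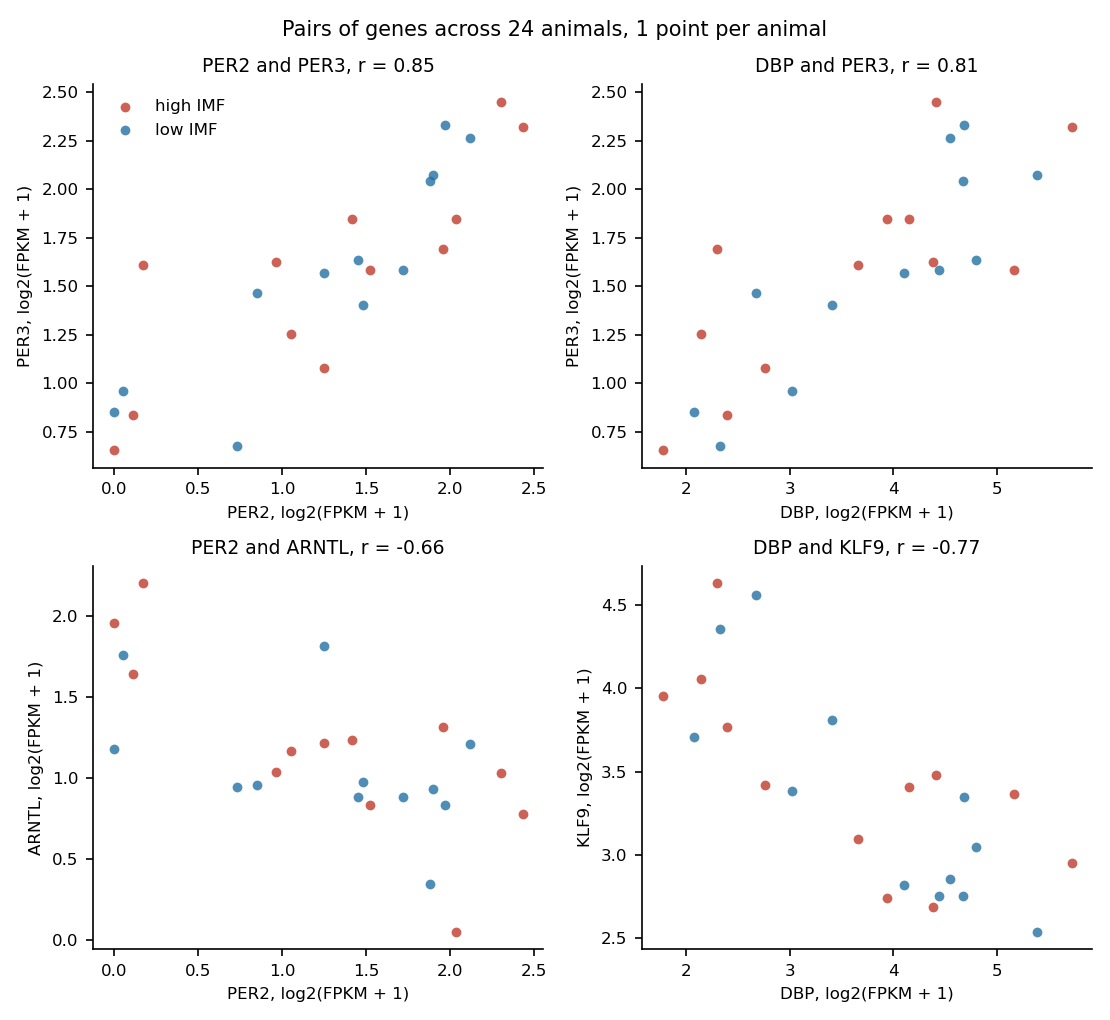
Levels of gene pairs in the 24 animals, 1 point per animal, both axes in log2(FPKM + 1), high IMF animals in red and low IMF animals in blue. PER2 with PER3 (r = 0.85) and DBP with PER3 (0.81) rise together, ARNTL against PER2 (-0.66) and KLF9 against DBP (-0.77) run in opposite directions, and both groups are spread along each cloud.

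For each member, the 3 genes of highest and the 2 of lowest r among genes with a symbol and a mean of at least 1 FPKM were taken, over the 24 animals. They were chosen for their r, so no test is given. NR1D2 was followed most closely by TCEA3, a transcription elongation factor rich in muscle, at r = 0.864 (rho = 0.858), by IRS1, the docking protein of the insulin receptor, at 0.862 (rho = 0.861), and by RHOBTB1 at 0.814 (rho = 0.812). IRS1 ran from 5.58 to 36.3 FPKM. EIF1B, a translation initiation factor, and UCK2, a uridine kinase, ran against NR1D2 at -0.820 and -0.761.

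PER3 was followed, after PER2, by ATP9A, a lipid flippase, at r = 0.845 and by FBXO45, a ubiquitin ligase subunit, at 0.831. DBP was followed, after PER3, by TLE1, a transcriptional corepressor, at 0.796 and by RGMA, a coreceptor for bone morphogenetic proteins, at 0.769. FNTB, the beta subunit of protein farnesyltransferase, was among the 2 lowest for both, at -0.704 with PER3 and -0.738 with DBP. PER2 was followed, after PER3 and NR1D2, by the zinc finger gene ZNF438 at 0.737, and RASGEF1C and the DNA repair nuclease gene ERCC5 ran against it at -0.749 and -0.732.

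PER1 was followed by USP2, a deubiquitinase under clock control, at r = 0.713, by the ubiquitin ligase SIAH1 at 0.673 and by the heat shock gene HSPA6 at 0.665. HSPA6 ran from 1.78 to 129 FPKM. ARNTL was followed by TBPL1 at 0.684, TMEM140 at 0.668 and the small muscle protein gene SMPX at 0.641, with EMILIN3 at -0.690 and LEMD2 at -0.662. CRY1 was followed by ARHGAP27 at 0.738 and LMAN2L at 0.715, with thymidine kinase TK1 at -0.676 and the Y-linked helicase gene DDX3Y at -0.641. DDX3Y is listed at 0 in the lowest animal and at 8.04 FPKM in the highest. CRY2 was followed by HOXC8 at 0.674, RPRD2 at 0.670 and TTC14 at 0.650, with PTPN18 at -0.724. NR1D1 was followed by GALNS at 0.738, AXL at 0.665 and PDE2A at 0.664, with TTYH2 at -0.657 and TLK2 at -0.622.

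A list of 19 other clock genes, which modify or reinforce the loop, had 13 symbols in the table and 12 tested. None was called between IMF groups (0 of 12 by limma, against 0.051% of all genes), and 1 had an unadjusted p under 0.05, against 7.68% of all genes. Of the differences 5 were positive, with a median of -0.07 against 0.08 over all genes. CIART, a repressor of the loop, averaged 3.48 ± 1.3 FPKM in high and 2.54 ± 0.891 FPKM in low IMF animals (SD, n = 12 each), a log2 difference of 0.33 (limma adjusted p = 0.643). BHLHE41, a repressor that binds the same E-box sites as CLOCK and ARNTL, averaged 4.48 ± 2.44 FPKM in high and 6.39 ± 2.40 FPKM in low IMF animals, a log2 difference of -0.58 (limma adjusted p = 0.651). No gene of the list was called between identifier sets. CIART had the smallest unadjusted p there, 0.00348, with a log2 difference of -0.43 for set DLC1601 minus set DLC1512 (limma adjusted p = 0.767).

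A list of 16 genes known to follow the clock in muscle or in most tissues had 13 symbols in the table, all tested. None was called between IMF groups (0 of 13 by limma, against 0.051% of all genes), and 3 had an unadjusted p under 0.05, against 7.68% of all genes. The differences were positive for 10, with a median of 0.24 against 0.08 over all genes. GPCPD1, a glycerophosphodiesterase, averaged 4.14 ± 2.28 FPKM in high and 2.42 ± 1.32 FPKM in low IMF animals (limma adjusted p = 0.590). MYOD1, the master regulator of the muscle lineage and a direct target of CLOCK and ARNTL in mice, averaged 18.8 ± 7.76 FPKM in high and 24.8 ± 6.84 FPKM in low IMF animals, a log2 difference of -0.47 (limma adjusted p = 0.636). The tetraspanin TSPAN4 averaged 1.53 ± 0.976 FPKM in high and 0.866 ± 0.658 FPKM in low IMF animals (limma adjusted p = 0.642).

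A list of 12 glucocorticoid-responsive genes, which include PER1, had 11 symbols in the table. Apart from PER1 they made 11 tested loci, since GLUL has one on chromosome 3 and one on chromosome 9. By limma 0 of 11 were called between IMF groups, against 0.051% of all genes, and 0 had an unadjusted p under 0.05, against 7.68%. The differences were positive for 6, with a median of 0.01 against 0.08 over all genes. The smallest adjusted p was 0.660, of the GLUL locus on chromosome 3.

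The lists, like the members, were drawn up with earlier results of these data known, which limits what the p-values of their relations show. The members were set against these 36 loci, 360 relations in all, of which 13 passed an adjusted p of 0.05 by Pearson r and 3 by both Pearson r and Spearman's rho. The smallest r among the 13 was 0.611 in size, and 1.05% of the 117560 pairs of a member with another tested gene had one as large. NR1D2 went with HLF, a close relative of DBP that binds the same D-box elements, at r = 0.763 (permutation adjusted p = 0.0036, rho = 0.774). NR1D2 also went with RORA, the nuclear receptor that activates ARNTL at the sites where NR1D2 represses it, at r = 0.714 (adjusted p = 0.0126, rho = 0.714). HLF was at 2.38 to 5.89 FPKM in high and 2.34 to 5.42 FPKM in low IMF animals.

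The third pair that passed by both measures was DBP with KLF9, a zinc finger factor induced by glucocorticoids, at r = -0.772 (permutation adjusted p = 0.0036, rho = -0.737). It was -0.717 within high and -0.838 within low IMF animals, and -0.775 without the 2 animals farthest from the DBP median. KLF9 was the gene of lowest r with DBP among the genes ranked. In high IMF animals 2 and 5, with DBP at 2.42 and 3.91 FPKM, KLF9 was at 14.5 and 23.8 FPKM, and in high IMF animals 1 and 4, with DBP at 51.6 and 34.7 FPKM, it was at 6.75 and 9.32 FPKM. In low IMF animals 2 and 10, with DBP at 4.03 and 5.37 FPKM, KLF9 was at 19.5 and 22.6 FPKM, and in low IMF animal 6, with DBP at 40.7 FPKM, it was at 4.82 FPKM.

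FKBP5, a chaperone of the glucocorticoid receptor and a standard marker of its activity, ran from 0.237 to 41.8 FPKM and against DBP at r = -0.630 (permutation adjusted p = 0.0448, rho = -0.623 with adjusted p = 0.063). KLF10, a clock-controlled zinc finger factor, ran against DBP at r = -0.626 (adjusted p = 0.0448, rho = -0.601 with adjusted p = 0.0674). Of all tested genes, 0.315% had an r with DBP at or below -0.626. The FKBP5 call was lost without high IMF animal 7 and low IMF animal 10 (r = -0.661, adjusted p = 0.0508) and without the 2 animals with PER2 at 0 (r = -0.622, adjusted p = 0.0642). The KLF10 call was lost with TMM scaling (r = -0.583, adjusted p = 0.0619) and without either of these pairs of animals (r = -0.600 and -0.601). Over the 11 glucocorticoid-responsive loci the median r with DBP was -0.258, against 0.011 over all tested genes, and 2 of the 11 passed, both negatively. DUSP1, SGK1 and ZBTB16 had positive r with DBP, at 0.204, 0.200 and 0.077, and the other loci of the list negative r. For SGK1 it was 0.743 within high and -0.467 within low IMF animals. PER1, which glucocorticoids also induce, had no called relation with the list.

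The other called relations passed by Pearson r alone. PER3 went with HLF at 0.656 and with RORA at 0.622, NR1D2 with KLF15 at 0.654, and PER2 with TEF, another D-box factor, at 0.639 and with USP2 at 0.611. PER2 ran against NFIL3, the repressor that competes for the D-box, at r = -0.625 (adjusted p = 0.0448, rho = -0.605). PER1 went with USP2 at 0.713 (adjusted p = 0.0108) and with CIART at 0.634. ARNTL, CLOCK, CRY1, CRY2 and NR1D1 had no called relation with any of the 36 loci.

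The members were also set against 3 measures of each library: the share of FPKM in the 10 most abundant genes, the median log2(FPKM + 1) of tested genes and the summed adipocyte marker level. None of the 30 relations passed a permutation test after adjustment, and 1 had an unadjusted p under 0.05, CLOCK with the median level at r = 0.530 (p = 0.00835, adjusted p = 0.250). With the long transcript level added, CLOCK passed as given above, and PER3, CRY2 and NR1D2 had r = 0.502, 0.431 and 0.427 with it (adjusted p = 0.179, 0.311 and 0.311). With each member adjusted for that level, 10 pairs of members passed, and the PER2 and PER3 pair had r = 0.872, the PER3 and DBP pair 0.878 and the ARNTL and PER2 pair -0.69.

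Of the 27 transcripts, 11 are reference transcripts and 16 were added by the authors' assembly. CLOCK, PER2, PER3, CRY2 and DBP have 1 listed transcript each, ARNTL and CRY1 2, NR1D2 3, NR1D1 7 and PER1 8. The assembly divides reads among isoforms, so isoform values are less certain than their sums. None of the 26 tested transcripts was called between IMF groups by limma, where 0.0187% of the 21405 tested transcripts were, and 3 had an unadjusted p under 0.05, where 6.34% did. The smallest p was that of the PER1 isoform MSTRG.2938.15, which averaged 1.03 ± 0.517 FPKM in high and 0.533 ± 0.595 FPKM in low IMF animals (SD, n = 12 each), a log2 difference of 0.46 (limma adjusted p = 0.681). It was listed at 0 in 5 animals, all of them low IMF. Every listed row is above 0 in at least 19 libraries, so no row is at 0 in more animals than this. The PER1 isoform MSTRG.2938.12 was at 0 in the same 5 animals, and r between both isoforms was 0.861. The authors' deposited table gives MSTRG.2938.15 a fold change of 0.732, low over high IMF, with a p-value of 0.0278 and a q-value of 0.821.

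NR1D2 had a main isoform, MSTRG.3102.3, that took most of the level of the gene in 22 of the 24 animals. In high IMF animals 5 and 12 it was at 0.309 and 0.182 FPKM, while the reference isoform ENSSSCT00000025072 was at 26.0 and 28 FPKM. In the other 22 animals the main isoform was at 12.3 to 34.3 FPKM and the reference isoform at 2.70 to 8.38 FPKM. The sums in these 2 animals, 26.8 and 28.6 FPKM, were within the range of the rest. No value lay between the 2 patterns, and both animals of the second pattern are high IMF. Since the animals fall into separate clusters, no r over all 24 is given for this isoform pair; among the low IMF animals, which hold none of the second pattern, it was 0.488. The main isoform had a log2 difference of -0.80 (SE 0.46, limma adjusted p = 0.827) and the reference isoform 0.53 (SE 0.28, adjusted p = 0.813) for high minus low IMF. The main isoform averaged 17.6 ± 9.60 and 22.9 ± 6.17 FPKM in high and low IMF animals. These means and both differences include high IMF animals 5 and 12. The medians in high and low IMF animals were 19.5 and 21.1 FPKM for the main isoform and 5.36 and 3.72 FPKM for the reference isoform.

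**Figure D5:**
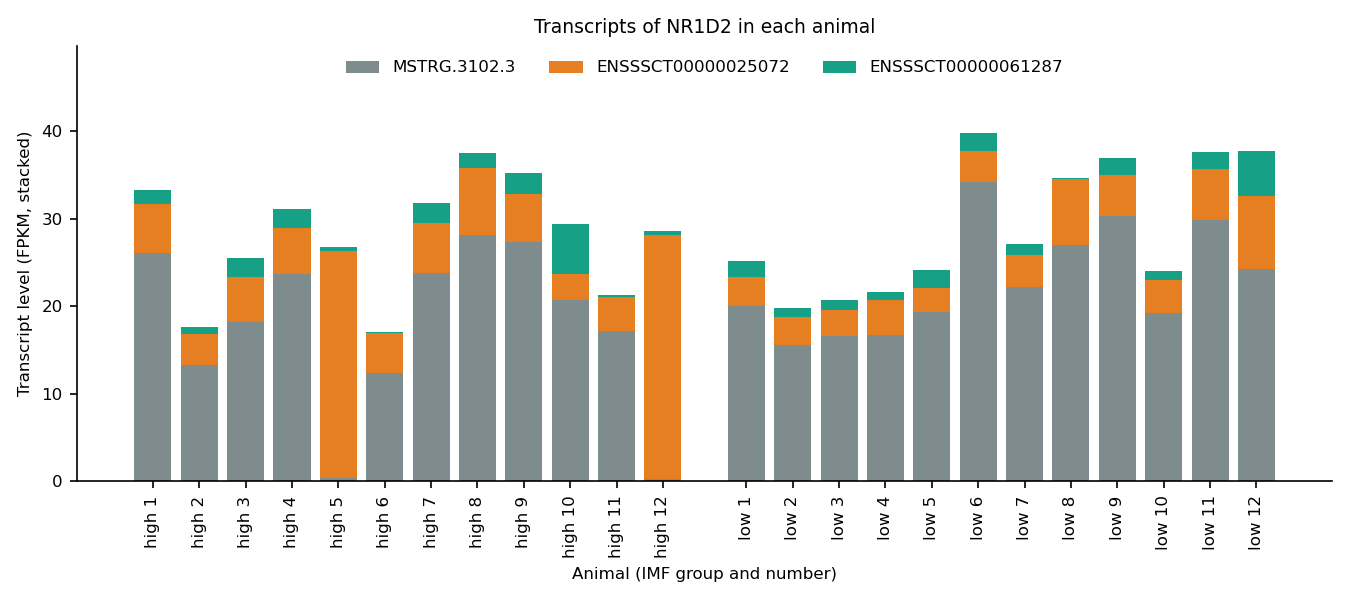
Level of the 3 listed transcripts of NR1D2 (y axis, FPKM, stacked to the level of the gene, from 0) in each animal (x axis), high IMF animals on the left and low IMF animals on the right. High IMF animals 5 and 12 have 26.0 and 28 FPKM of ENSSSCT00000025072 and almost none of MSTRG.3102.3, which leads in the other 22 animals.

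CRY1 was split between a reference isoform, ENSSSCT00000064675, and an assembled one, MSTRG.10678.1, at r = -0.795 (permutation adjusted p = 0.00054 over 54 pairs of transcripts of 1 gene, rho = -0.693), -0.808 within high and -0.798 within low IMF animals. The reference isoform held the larger part of CRY1 in 8 animals and the assembled one in 16. High IMF animals 3, 5, 10 and 12 had 2.04, 1.24, 1.38 and 1.27 FPKM of the reference isoform and 0.864, 0.846, 0.202 and 0.217 FPKM of the assembled one. Low IMF animals 3, 9, 11 and 12 had 0.887, 1.63, 1.502 and 1.41 FPKM of the reference isoform and 0.624, 0.706, 0.391 and 0.488 FPKM of the assembled one. In the other 16 animals the reference isoform was at 0.178 to 0.833 FPKM and the assembled one at 1.34 to 3.33 FPKM. The r over all animals and within each group includes this split of 8 and 16. The part of the division of reads among isoforms in it was not tested. Of the 54 pairs, 9 passed, 6 positively and 3 negatively. The NR1D2 pair above is among the negative ones, with its animals in separate clusters, and its Spearman rho was 0.189 (permutation adjusted p = 0.593). Over all genes with a symbol, 21% of the 17700 pairs of transcripts of 1 gene had an r as large as the smallest of the 9 in size.

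The spread of ARNTL lay mainly in ENSSSCT00000014635, of 19 exons. That isoform was at 2.14, 2.43, 1.082 and 1.73 FPKM in high IMF animals 2, 3, 5 and 6 and at 1.78 and 1.90 FPKM in low IMF animals 5 and 7, and at or below 0.553 FPKM in the other 18 animals. The other isoform, ENSSSCT00000052499, of 21 exons, ran from 0 to 1.17 FPKM. Their r was 0.193. Of the 26 transcripts of the other members, 4 were correlated with DBP past an adjusted p of 0.05, where 2.08% of all listed transcripts had an r as large as the smallest of the 4: the single transcripts of PER3 and PER2, the main isoform of NR1D2 (r = 0.585, adjusted p = 0.0013, rho = 0.798) and the NR1D1 isoform MSTRG.2494.5 (r = 0.538, adjusted p = 0.0302, rho = 0.534). The other 6 isoforms of NR1D1 and the 8 of PER1 were not. In high IMF animals 5 and 12, the main isoform of NR1D2 was at 0.309 and 0.182 FPKM and DBP at 3.91 and 3.41 FPKM. The r of that isoform with DBP over all 24 animals includes these 2 separate animals. It was 0.624 within high and 0.850 within low IMF animals. ENSSSCT00000014635 of ARNTL had r = -0.451 with DBP (adjusted p = 0.122) and ENSSSCT00000052499 had r = -0.158.

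The loci of CRY2 and DBP each hold 1 more transcript that carries no symbol and was not summed with the gene. MSTRG.7356.1, of 23 exons and 10917 bases, reaches beyond CRY2 on chromosome 2 and averaged 0.880 FPKM. MSTRG.11939.1, of 12 exons, covers the whole span of DBP on chromosome 6 and reaches beyond it and averaged 0.546 FPKM, against 16.4 FPKM for DBP.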

How the data were processed

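The authors deposited 1 table of FPKM per transcript and animal; the unit was inferred from its values, which do not sum to a constant. It also holds, per the file headers, a fold change, p-value and q-values, used here only where the authors' deposited table is named. HISAT2 2.0.5, StringTie 1.3.3 and the build Sscrofa11.1 are listed, with no roles, in the submitters' processing notes. The table states no depth. It was inferred from FPKM times length, which moves in steps of 1 read base (69.9% to 80.2% of low values within 0.05 base of a step), so no count model was used.

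FPKM was summed by symbol and chromosome into 12017 genes. Those averaging 0.5 FPKM or more were tested with limma 3.58.1 (R 4.3.3; trend, robust) on log2(FPKM + 1), which understates the change of low genes, with Benjamini-Hochberg adjustment at 0.05. Correlations used permutation of animals with 100000 resamples (numpy 2.4.6), whose smallest p is 1e-05. Named genes were all members, the 3 genes of highest and 2 of lowest r per member, and up to 4 per list by smallest p. Some genes that this rule names are not reported here. Scripts were tested on simulated data. The members and lists were chosen with earlier results of these data known. The labels do not pair animals. Alternatives are given at the end.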

Additional observations from a re-analysis of the deposited data

How the results depend on the processing

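The table states no depth, so no interval for counting error is given; 3 reads correspond to 0.0108 to 0.0134 FPKM for PER2. Of 1831 values under an alternative, 1747 kept their direction and side of the threshold. The members gave 675 log2 differences, of which 0 passed an adjusted p of 0.05 and 36 changed sign. The cause of the changes below was not tested. In some of the alternatives fewer animals or transcripts enter.

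Genes called between IMF groups, 6 of 11757, were 26 with array weights and 21 when high IMF animal 7 and low IMF animal 10 were dropped together. Dropping single animals gave 3 to 31, with 3 when high IMF animal 5 and 31 when low IMF animal 10 was dropped. With array weights PER3 had a log2 difference of 0.019 between IMF groups and 0.0102 between identifier sets. With 1 animal per shared 9 digits PER2 had 0.011, and with upper quartile scaling CSNK1D had -0.0034. When high IMF animal 7 and low IMF animal 10 were dropped, PER3 had 0.0598 between sets. CLOCK had -0.13 between IMF groups without the 4 libraries with CLOCK at 0. With 1 animal left out, the difference between IMF groups ran from -0.133 to 0.099 for PER2, from -0.086 to 0.078 for PER3 and from -0.0998 to 0.0028 for NR1D2, and PER3 ran from -0.124 to 0.047 between sets.

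With reference transcripts alone, which leave out PER2 and CLOCK, 1 pair of members was called in place of 9. The r of NR1D1 and NR1D2 was then -0.023, that of NR1D2 and DBP -0.082, that of PER3 and NR1D2 0.299 and that of NR1D1 and DBP 0.282. The differences between IMF groups were then -0.0019 for CRY1, 0.47 for NR1D2 and -0.18 for TSPAN4. Those between sets were 0.14 for CRY1 and 0.23 for NR1D2. The values of NR1D2 in this setting include high IMF animals 5 and 12, at 26.0 and 28 FPKM of ENSSSCT00000025072. The r of ARNTL and CLOCK was -0.105 without the 4 libraries with CLOCK at 0, and that of PER1 and DBP was -0.0088 without the 2 libraries with PER2 at 0. With long transcripts as another measure, 1 member was related to a library measure in place of 0. No paired analysis was possible because the replicate numbers were given in accession order and no label pairs the animals.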
